A study of Homo sapiens with 10 samples.

Results

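JUNB binding sites were compared between non-transformed and transformed breast epithelial cells, using the JUNB ChIP-seq peak list of each state. A site was a peak summit on chromosomes 1 to 22 or X. It was kept when a JUNB summit of the other state lay within 300 bp, lost when it was listed only in non-transformed cells (EtOH), and gained when it was listed only in transformed cells (TAM). The EtOH list held 75249 sites and the TAM list 101014, so that JUNB contributed 176263 of the 879550 sites in the 10 lists of the series. Of the EtOH sites, 55965 were kept and 19284 were lost. Of the TAM sites, 55765 were kept and 45249 were gained. The kept sites formed 55251 pairs in which each summit was the nearest of the other.

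The cells were MCF10A-ER-Src, a derivative of the immortal, non-tumorigenic mammary epithelial line MCF-10A. In both states they carry v-Src, an oncogenic tyrosine kinase, joined to the hormone-binding part of the estrogen receptor, and tamoxifen switches this fusion on. The transformed cells had received 1 µM 4-hydroxytamoxifen for 12 h. The non-transformed cells had not, and their library name gives EtOH (ethanol) with a time of 36 h. FOS, JUN, STAT3 and NFKB1 were mapped in the same 2 states.

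JUNB belongs to the JUN family of basic leucine zipper proteins and binds DNA as AP-1, a dimer formed with a FOS family protein or another JUN family protein. FOS is the founding member of the FOS family and binds DNA as a heterodimer with a JUN protein. JUN is a close relative of JUNB and can also bind as a homodimer. STAT3 is activated by tyrosine phosphorylation downstream of cytokine receptors and Src. NFKB1 encodes p105, the precursor of the p50 subunit of NF-κB.

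Each protein and state had 1 library, so no difference between the states has a replicate check and none was tested. The 95% intervals given below cover the sampling of sites or the counting of tags, and not the variation between cultures. After duplicate removal, which kept at most 1 tag per position and strand, 9178601 tags remained in the JUNB EtOH library and 15750765 in the TAM library, a ratio of 1.72. These were 50.1% and 68.9% of all aligned tags. Levels are given in RPM, the pileup (the number of extended tags over the summit) per 1000000 filtered tags of its own library. A site that is not listed did not pass the peak caller's threshold, which is not the same as no binding. The lists hold no expression values and no sequence, so the identity of the cells and the AP-1 motif were not checked here.

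Most JUNB sites of non-transformed cells were found again after transformation, and the TAM list was longer by a factor of 1.34. The kept share of the EtOH sites was 74.4% (Wilson 95% interval 74.1 to 74.7). The gained share of the TAM sites was 44.8% (44.5 to 45.1). By the same rule, the kept share of the EtOH sites was 83.0% for FOS, 79.0% for JUN, 70.9% for STAT3 and 89.3% for NFKB1. The gained share of the TAM sites was 39.3% for FOS, 49.3% for JUN, 61.6% for STAT3 and 83.8% for NFKB1. The ratio of TAM to EtOH filtered tags ranged from 0.821 for STAT3 to 2.0 for NFKB1, and its part in these shares was not tested.

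Lost and gained sites were weak sites. The median level was 1.31 RPM at kept sites in EtOH against 0.654 at lost sites. It was 1.46 at kept sites in TAM against 0.635 at gained sites. The 5th to 95th percentile ran from 0.545 to 1.20 at lost sites and from 0.381 to 1.52 at gained sites, so these overlapped the lower part of the kept sites, which ran from 0.654 to 4.36 in EtOH and from 0.508 to 4.13 in TAM. Of the lost sites, 117 (0.607%) reached 2 RPM, and of the gained sites 828 (1.83%). Peaks at lost and gained sites were also narrower, with a median length of 126 bp at lost and 165 bp at gained sites, against 194 bp and 251 bp at the kept sites of EtOH and TAM.

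The kept share rose with the level in every step. In the weakest decile of the EtOH sites 31.0% were kept, in the fifth decile 78.1%, and in the strongest decile 99.5%. In TAM the corresponding shares were 15.8%, 46.5% and 98.4%. At the same decile the TAM sites were kept less often than the EtOH sites throughout. The matching rule gives the 2 lists nearly equal numbers of kept sites, so the longer TAM list has the lower kept share by construction. The deciles were also not matched in level, the fifth having a median of 0.981 RPM in EtOH and 0.825 in TAM. Among the strongest decile, 0.478% of the EtOH sites were lost and 1.61% of the TAM sites were gained.

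**Figure D1:**
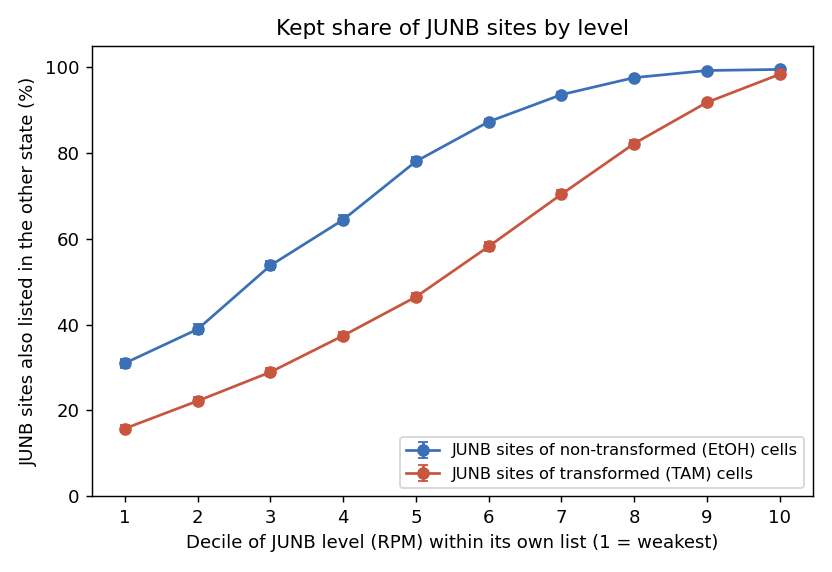
Share of JUNB sites that had a JUNB summit of the other state within 300 bp, in % (vertical axis), by decile of the site's level in RPM within its own list (horizontal axis, 1 is the weakest), for the EtOH list (blue) and the TAM list (red). Bars are Wilson 95% intervals. The share climbed from 31.0% to 99.5% in EtOH and from 15.8% to 98.4% in TAM.

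The difference in depth bears unequally on lost and gained sites. A lost site whose level had not changed would have carried a median of 10.3 tags in the deeper TAM library, and 79.4% of lost sites would have carried 10 or more. A gained site at an unchanged level would have carried a median of 5.83 tags in the EtOH library, and 13.7% of gained sites (6184) would have carried 10 or more. The weakest listed site had 4 tags in EtOH and 5 in TAM. These projections take the listed level as the true level. The sites were chosen for being listed in 1 state only, and no allowance was made for that choice. The part of depth in the number of gained sites was not tested.

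Most sites lay far from the matching limit. The median shift between the summits of a kept pair was 19 bp, and 90% of pairs lay within 60 bp. The median distance from an unmatched site to the nearest JUNB summit of the other state was 8264 bp for lost and 8366 bp for gained sites. Few sites lay at the 300 bp limit. Of the EtOH sites, 985 had their nearest TAM summit in the last 100 bp inside the limit, with FOS at 83.1% of them, and 886 had it in the first 100 bp outside, with FOS at 42.1%. Of the TAM sites, 874 lay just inside the limit and 1118 just outside, with FOS at 85.0% and 56.2%.

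FOS, which forms AP-1 with JUNB, was listed at nearly all kept sites, and JUN at most of them. Both were listed at smaller shares of the lost and gained sites. A partner was counted when its summit lay within 300 bp of the JUNB summit. FOS was present at 95.8% of the kept sites in EtOH and 97.4% in TAM. It was present at 36.3% of the lost sites in EtOH and at 78.8% of the gained sites in TAM. JUN was present at 69.5% and 92.4% of the kept sites in EtOH and TAM, at 17.1% of the lost sites in EtOH, and at 59.1% of the gained sites in TAM.

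STAT3 and NFKB1 followed the same order at lower shares. STAT3 was present at 37.6% of the kept sites in EtOH and 63.6% in TAM, at 7.60% of the lost sites in EtOH, and at 38.5% of the gained sites in TAM. NFKB1 was present at 13.8% and 61.1% of the kept sites, at 2.01% of the lost sites in EtOH, and at 31.2% of the gained sites in TAM. The NFKB1 libraries held 4837474 filtered tags in EtOH and 9674390 in TAM, and the NFKB1 lists 13252 and 73822 sites. The STAT3 libraries held 10929003 and 8967267 filtered tags, so that the longer STAT3 list, that of TAM, came from the shallower library.

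At least 1 of the 4 partners was listed at 84.0% of the gained sites in TAM (83.7 to 84.3) and at 43.9% of the lost sites in EtOH (43.2 to 44.6). These shares depend on which peaks are admitted. With partner peaks of at least 2 RPM only, they were 16.7% and 2.23%, and with JUNB peaks of at least 2 RPM only, 99.9% and 99.9%. The most frequent combination at kept TAM sites was all 4 partners, at 49.7%. All 4 were present at 19.4% of the gained sites, where FOS with JUN alone made up 18.2%, no partner 16.0% and FOS alone 15.8%. Among the lost sites, 56.1% had no partner in EtOH and 23.6% had FOS alone. No partner in either state was found at 0.370% of the kept EtOH sites, at 46.2% of the lost sites (8910) and at 14.1% of the gained sites (6366).

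**Figure D2:**
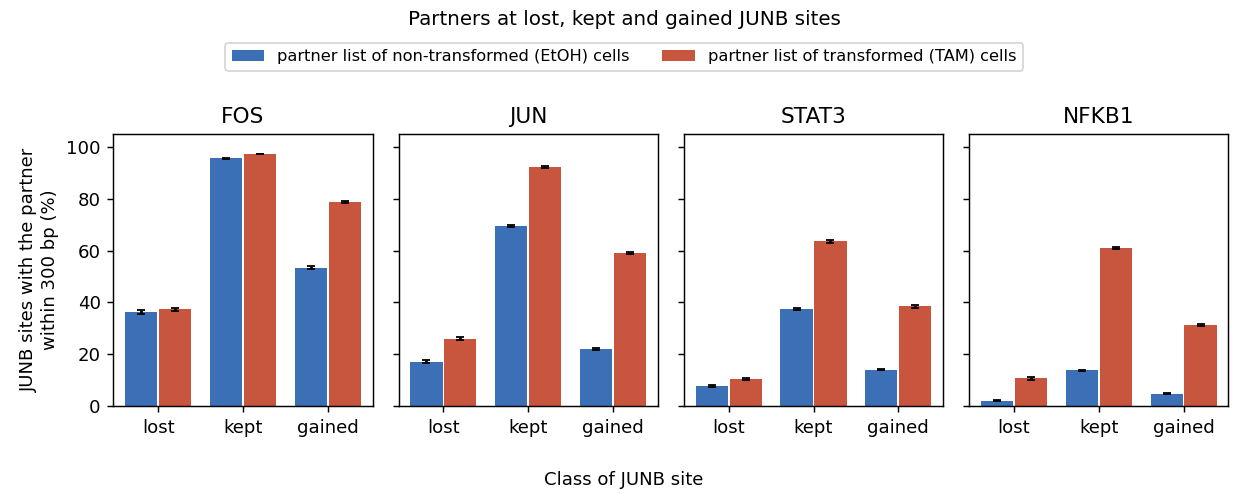
Share of lost, kept and gained JUNB sites with a summit of FOS, JUN, STAT3 or NFKB1 within 300 bp, in %, in the partner list of non-transformed (blue) and of transformed cells (red). Bars start at 0, the whiskers are Wilson 95% intervals, and kept sites are taken at the TAM summit. FOS had the highest share of the 4 partners in each class, for instance 97.4% of kept and 78.8% of gained sites in TAM.

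The partner lists of the other state show what was present where JUNB was not listed. At the gained sites, FOS was already listed in non-transformed cells at 53.5%, JUN at 22.1%, STAT3 at 14.1% and NFKB1 at 4.68%. Thus 63.3% of the gained sites with FOS in TAM had FOS in EtOH, against 96.6% of such kept sites. At the lost sites, FOS was still listed in transformed cells at 37.4%, JUN at 26.0%, STAT3 at 10.3% and NFKB1 at 10.6%. Of the lost sites with FOS in EtOH, 75.3% had FOS in TAM.

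The 6184 gained sites that would have carried 10 or more tags in the EtOH library at an unchanged level had partners more often than the gained sites as a whole. FOS was present at 98.7% of them in TAM and at 80.1% in EtOH. JUN was at 95.1% in TAM and 34.4% in EtOH, STAT3 at 69.8% and 21.5%, and NFKB1 at 59.9% and 7.52%. The 15303 lost sites that would have carried 10 or more tags in TAM had FOS at 41.5% in EtOH and 42.2% in TAM, JUN at 18.8% and 28.9%, STAT3 at 8.21% and 11.2%, and NFKB1 at 2.27% and 11.6%. In its own state, each of the 4 partners was thus listed more often at these gained than at these lost sites. The limit of 10 tags stands for 1.09 RPM at gained and 0.635 RPM at lost sites, so the 2 sets differ in level.

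Partners and level are not independent, and the shares were repeated within ranges of the JUNB level. Among EtOH sites of 0.75 to 1 RPM, FOS was present in EtOH at 91.7% of the kept and 45.0% of the lost sites. In the range of 1 to 1.5 it was present at 97.3% and 80.3%. JUN was present in these ranges at 49.6% of kept against 19.1% of lost sites, and at 62.7% against 28.0%. The kept and lost sites of like level therefore differed in FOS and JUN by more than the intervals of the shares.

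Among TAM sites of like level the gap between kept and gained sites was wide for FOS at the lowest levels and small from 0.75 RPM up. Below 0.5 RPM, FOS was present in TAM at 84.4% of the kept and 45.4% of the gained sites, and from 0.5 to 0.75 RPM at 91.4% and 76.2%. At 1 to 1.5 RPM, FOS was present in TAM at 98.8% of the kept and 98.4% of the gained sites, and JUN at 96.6% and 90.5%. STAT3 was present at 57.4% of the kept (56.6 to 58.3) and 61.5% of the gained sites (60.2 to 62.7), and NFKB1 at 52.8% and 49.6%. At 0.75 to 1 RPM, STAT3 was at 40.9% of the kept and 46.7% of the gained sites. It was more frequent at kept sites below 0.5 RPM, at 28.0% against 18.5%. The classes were close for STAT3 from 0.5 to 0.75 RPM, at 30.4% and 30.9%. They were also close from 1.5 RPM up, for instance 85.8% and 84.8% at 2 to 3 RPM. NFKB1 was close at 0.75 to 1 RPM, at 36.8% of the kept and 36.3% of the gained sites. It was more frequent at kept sites at 1.5 to 2 RPM, at 71.3% against 65.0%, and at 2 to 3 RPM, at 84.8% against 78.4%. Another measure is the kept share of the TAM sites with and without a partner, taken here at 1 to 1.5 RPM. It was 67.1% with FOS in TAM and 59.5% without. The EtOH lists gave a wider gap, at 72.2% with FOS in EtOH and 21.6% without. For JUN in EtOH the kept shares were 81.3% and 50.4%, and for JUN in TAM 68.5% and 42.2%.

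The kept share also rose with the number of partners listed in the same state. Of the EtOH sites with 0, 1, 2, 3 and 4 partners, 12.8%, 70.6%, 91.4%, 95.4% and 97.9% were kept. Of the TAM sites, 6.74%, 26.0%, 51.1%, 58.0% and 76.0% were kept. The JUNB level rose along the same series, from a median of 0.654 to 2.18 RPM in EtOH and from 0.508 to 1.78 in TAM.

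JUNB and partner summits lay close together in every class. The median distance to the FOS summit was 16 bp at kept and 26 bp at lost EtOH sites, and 15 bp at kept and 21 bp at gained TAM sites. STAT3 summits lay farther off, at 37 bp and 61 bp in EtOH and at 25 bp and 30 bp in TAM. The FOS level was also lower away from the kept sites. Its median was 1.83 RPM at kept and 0.698 at lost EtOH sites, against 0.859 over all FOS sites of EtOH. In TAM it was 1.72 at kept and 0.860 at gained sites, against 0.725 over all FOS sites.

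JUNB levels at the kept pairs were similar in the 2 states. The median log2 ratio of TAM to EtOH was -0.05 (order-statistic 95% interval -0.06 to -0.04), with quartiles of -0.49 and 0.42 over the 55251 pairs. The level was at least 2-fold higher in TAM at 4313 pairs, which is 7.81% of those compared, and at least 2-fold lower at 3897 pairs, 7.05%. An exact counting interval of the ratio lay above 1 at 3910 pairs (7.08%) and below 1 at 3677 pairs (6.66%). At 47664 pairs it included 1. Across the pairs the 2 levels had a Spearman correlation of 0.66, where the points share the 2 libraries and every pair had passed both thresholds.

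The balance of higher and lower pairs depended on the scale. With the fold enrichment over local background in place of RPM, 16.9% of the pairs were at least 2-fold higher and 1.29% at least 2-fold lower, and the median log2 ratio was 0.34. Per 1000000 aligned tags before duplicate removal, the shares were 20.9% and 1.5%, with a median of 0.41. The sign of the median ratio therefore depends on the scale. The 2-fold groups and counting intervals used from here on are those per filtered tags and would move with the scale.

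The ratio varied more at low than at high levels. Among pairs with a geometric mean level of 1 to 1.5 RPM, the 5th and 95th percentiles of the log2 ratio were -1.23 and 1.44. Among those at 3 or above they were -0.82 and 0.66, with 87 pairs 2-fold higher and 130 lower of 6947. Before duplicate removal, these counts were 545 and 4, and by fold enrichment 415 and 5. In the 14126 pairs with a pileup of at least 20 in both lists, the log2 ratio ran from -1.81 to 1.45 with a median of -0.23, 57 pairs being 2-fold higher and 603 lower. This balance was reversed on the other scales, with 729 higher and 33 lower per 1000000 tags before duplicate removal, and 534 and 30 by fold enrichment. That limit asks for 2.18 RPM in EtOH and for fewer in TAM, so it leaves out more of the pairs that were higher in TAM. The part of this limit in the balance of 57 and 603 was not tested.

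**Figure D3:**
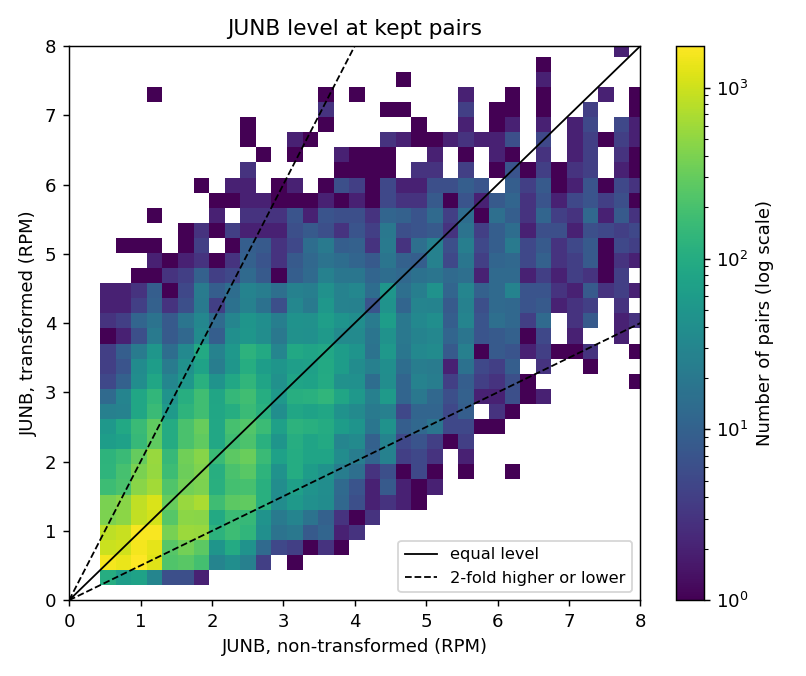
JUNB level in non-transformed (horizontal axis) and transformed cells (vertical axis), in RPM, at the kept pairs. Colour gives the number of pairs in each square on a log scale, the solid line marks equal levels and the dashed lines a 2-fold difference. 168 pairs beyond 8 RPM are not drawn. The bulk of the pairs lies between the dashed lines, outside which 7.81% were higher and 7.05% lower.

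STAT3 and NFKB1 in transformed cells were listed far more often at the pairs where JUNB was higher after transformation. Partners were judged at the TAM summit. STAT3 in TAM was at 86.5% of the pairs with 2-fold higher JUNB, at 64.2% of those within 2-fold, and at 31.9% of those 2-fold lower. NFKB1 in TAM was at 81.5%, 61.7% and 31.6%. In the EtOH lists the higher pairs and those within 2-fold differed little when all levels were pooled. STAT3 was at 39.9%, 38.8% and 19.4%, and NFKB1 at 13.7%, 14.5% and 5.39%. They did differ among pairs of like EtOH level of JUNB, a comparison added after the data were seen. At an EtOH level of 1 to 1.5 RPM, STAT3 in EtOH was at 41.8% of the higher and 30.3% of the intermediate pairs. NFKB1 in EtOH was at 14.3% and 10.7%. Below 1 RPM the shares were 37.8% and 23.9% for STAT3, and 12.5% and 8.16% for NFKB1. The TAM level of JUNB still differed by construction, with medians of 2.92 and 1.21 RPM at the EtOH level of 1 to 1.5 RPM. The order was not the same in every split. At a TAM level of 2 to 3 RPM, STAT3 in EtOH was at 38.7% of the higher and 54.1% of the intermediate pairs. NFKB1 in EtOH was at 13.7% and 20.4%. At a geometric mean of 2 to 3 RPM the STAT3 shares were 47.0% and 53.7%. They were 37.2% and 29.5% at 1 to 1.5 RPM. With all levels pooled, FOS was at 95.7% to 99.0% of each group in both states.

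These pair groups also differed in level. JUNB at the 2-fold higher pairs had medians of 0.872 RPM in EtOH and 2.29 in TAM, and at the 2-fold lower pairs of 1.85 and 0.698. STAT3 and NFKB1 in TAM kept the same order of the groups within pairs of one range of mean level. The TAM level of JUNB still differed between the groups by construction. At a geometric mean of 1 to 1.5 RPM, STAT3 in TAM was at 84.3% of the 1959 higher, 58.7% of the 11149 intermediate and 28.0% of the 1255 lower pairs. At 2 to 3 it was at 95.9%, 83.9% and 58.1%. NFKB1 in TAM was at 78.7%, 54.0% and 26.5% in the first range, and at 93.5%, 83.7% and 60.4% in the second. The median TAM level in the first range was 1.97, 1.27 and 0.762 RPM in the 3 groups.

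STAT3 and NFKB1 in TAM became more frequent with the TAM level of JUNB itself, and the gap between the groups was narrower among pairs of like TAM level, a comparison added after the data were seen. At a TAM level of 1 to 1.5 RPM, STAT3 in TAM was at 71.3% of the 408 higher, 57.7% of the 11008 intermediate and 43.8% of the 681 lower pairs, and NFKB1 at 66.4%, 52.8% and 44.8%. At 2 to 3 RPM, STAT3 was at 88.0%, 85.5% and 74.1%, and NFKB1 at 83.4%, 85.1% and 83.6%. In the latter range NFKB1 thus showed no order along the groups.

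JUN was listed more often in TAM than in EtOH at these pairs. In the TAM list it was at 99.0% of the 2-fold higher and 83.5% of the 2-fold lower pairs. In the EtOH list it was at 69.9% and 59.4%. Among pairs with a mean level of 1.5 RPM or more, JUN in TAM varied little along the ratio. It was at 97.6% of those under a log2 ratio of -1.5 and at 99.0% of those at 1.5 or above. In the EtOH list, among pairs with a mean level of 1.5 or more, JUN was most frequent where the JUNB ratio was near 1, at 93.5% between log2 ratios of -0.5 and 0. It was at 81.3% of the 123 pairs under -1.5 and at 73.7% of the 517 pairs at 1.5 or above. STAT3 in EtOH had the same shape, with 57.6% in the middle against 22.8% and 41.6% at the ends. STAT3 in TAM climbed along the whole axis instead, from 29.3% to 95%.

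**Figure D4:**
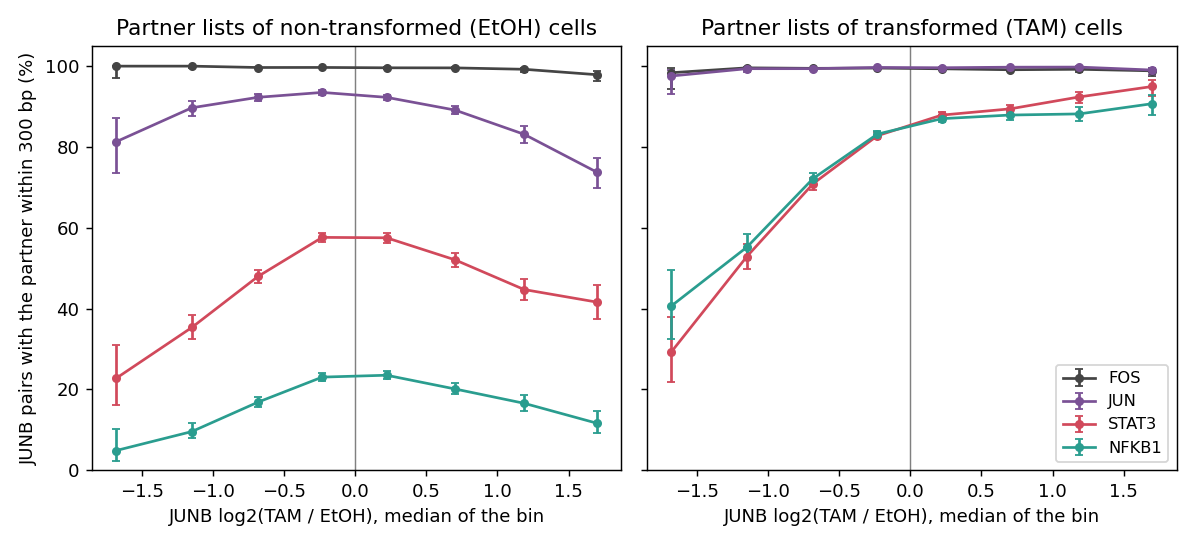
Share of kept pairs with FOS, JUN, STAT3 or NFKB1 within 300 bp, in % (vertical axis), in 8 bins of the JUNB log2 ratio of TAM to EtOH (horizontal axis, median of each bin), for pairs with a geometric mean level of at least 1.5 RPM. The left panel uses the partner lists of non-transformed and the right panel those of transformed cells, and bars are Wilson 95% intervals. STAT3 in TAM rose from 29.3% in the lowest to 95% in the highest bin. The TAM level of JUNB rises along the axis by construction. The mean level was higher in the middle bins, with a median of 2.61 RPM from -0.5 to 0 against 1.79 and 1.78 at the ends.

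The level change of each partner was larger where JUNB was higher and smaller where JUNB was lower, though not always of the same sign. Each partner's log2 ratio of TAM to EtOH was taken over its own mutual nearest pairs, and its median depends on the depth of its libraries in the same way as that of JUNB. For FOS the median was -0.08 over all its pairs, 0.55 where JUNB was 2-fold higher and -0.62 where JUNB was 2-fold lower. For JUN it was 0.37, 0.94 and 0.27. For STAT3 it was 0.75, 1.36 and 0.29, and for NFKB1 0.04, 0.44 and -0.30. Where JUNB was within 2-fold, the medians were -0.21 for FOS, 0.54 for JUN, 0.84 for STAT3 and 0.15 for NFKB1. At each of the 4 partners the level change was thus highest at the pairs with higher JUNB. At the pairs with 2-fold lower JUNB, the median of FOS and NFKB1 was lower in TAM, while that of JUN and STAT3 was still higher.

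The change of FOS also differed between gained and lost JUNB sites. At FOS sites of both states near a gained JUNB site, the median log2 ratio of FOS was 0.32 over 22470 sites, and near a lost JUNB site -0.25 over 5301. The median of JUN was 0.37 at gained and 0.07 at lost sites, against 0.37 over all its pairs. That of STAT3 was 0.85 and 0.29, against 0.75. That of NFKB1 was 8.3e-05 and -0.24, against 0.04. At kept JUNB sites the medians were -0.19 for FOS, 0.55 for JUN, 0.87 for STAT3 and 0.17 for NFKB1. Only FOS thus had a higher median at gained than at kept sites. Across sites, the FOS and JUNB log2 ratios had a Spearman correlation of 0.47 over 52093 sites. It was 0.32 for JUN (37594 sites), 0.29 for STAT3 (18739) and 0.24 for NFKB1 (7290). Each of these correlations rests on 4 libraries, and its points share those libraries and their depth.

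Single sites show these classes in all 10 lists. Coordinates are peak intervals in hg19, of the TAM list unless the site was lost, and all levels are in RPM. The nearest genes and motifs were not determined because the reference at hand is of another build.

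The strongest kept pairs were those with the highest level in the weaker of the 2 states. At chr4:72978204-72978674, JUNB was 12.1 in EtOH and 9.78 in TAM. At chr1:211210329-211211056 it was 13.4 and 9.40, and at chr1:145042526-145043515 it was 11.2 and 9.14. All of these were lower in TAM on this scale. At chr1:170676923-170677752 JUNB was 9.37 and 9.02, and at chr1:209562302-209563066 it was 11.4 and 8.95. The ratios ranged from 0.701 to 0.962, and the counting interval excluded 1 only at the first of the chr1 sites listed here, where it was 0.548 to 0.898. The direction depended on the scale, since per 1000000 tags before duplicate removal the ratios ran from 0.964 to 1.32, with 4 of the 5 above 1, and by fold enrichment from 0.868 to 1.23, with 3 above 1. With 1 tag allowed per position and strand over a fragment length, a pileup cannot exceed 246 in EtOH and 258 in TAM, and the highest seen on chromosomes 1 to 22 and X were 123 and 154. The part of this ceiling in the lower TAM levels was not tested.

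FOS was also strong at these 5 sites, from 6.87 to 8.97 in EtOH and from 5.07 to 6.79 in TAM. It was lower in TAM at each of them per filtered tags. JUN ranged from 2.40 to 4.79 in EtOH and from 4.06 to 5.91 in TAM, and it was higher in TAM at each. STAT3 was listed at all 5 in both states and was higher in TAM, with its highest level at chr1:145042526-145043515, 5.95 in EtOH and 13.2 in TAM. NFKB1 was listed at 4 of the 5 in EtOH and at all 5 in TAM.

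The strongest gained sites had no EtOH summit of JUNB within 1000 bp. JUNB in TAM was 4.95 at chr14:101467383-101468056, 4.63 at chr6:44643250-44643676, 4.57 at chr1:201754383-201754823, 4.06 at chr1:173082357-173082856 and 4.06 at chr2:5686354-5686684. FOS was listed in EtOH at all 5, at 0.430 to 1.5, and was higher in TAM, at 2.17 to 3.94. JUN was listed in EtOH at 1 of the 5, at 0.378, and in TAM at all 5, at 1.57 to 3.90. FOS was thus listed at these sites before transformation, and JUN mostly was not. STAT3 was listed in EtOH at 1, with 1.01, and in TAM at all 5, from 1.00 to 7.81. NFKB1 was listed at none of them in EtOH and at 4 in TAM, from 0.724 to 1.65.

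The strongest lost sites, with no TAM summit of JUNB within 1000 bp, were lower. JUNB in EtOH was 3.70 at chr6:101987489-101987691, 3.16 at chr5:144624366-144624781, 2.72 at chr5:164090694-164090890, 2.51 at chr12:40369417-40369619 and 2.51 at chr16:78176743-78176958. FOS was listed at all 5 in EtOH, from 1.29 to 3.97, and at 4 in TAM, from 0.498 to 1.77. JUN was listed at 4 in EtOH and at 2 in TAM. Neither STAT3 nor NFKB1 was listed at any of the 5 in either state. Over all lost sites, not limited to these 5, STAT3 was present in EtOH at 42.0% of the 81 lost sites of 2 to 3 RPM and 44.4% of the 36 at 3 RPM or above, and NFKB1 at 18.5% and 16.7%.

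Among pairs with a pileup of 20 or more in both lists, the 3 highest ratios ran from 2.62 to 2.74. These pairs, and the lowest ratios given below, were picked as extremes, and their counting intervals make no allowance for that choice. JUNB went from 2.18 in EtOH to 5.97 in TAM at chr20:18522407-18522773, a ratio of 2.74 with a counting interval of 1.68 to 4.69. It went from 2.18 to 5.90 at chr14:81412573-81412868 and from 2.40 to 6.29 at chr8:90270557-90271299. STAT3 was listed at none of these 3 sites in EtOH and at all 3 in TAM, at 0.892 to 1.90. FOS was higher in TAM at all 3, for instance 3.44 against 0.752 at the chr14 site.

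The lowest ratio was 0.285 with a counting interval of 0.160 to 0.490. This was seen both at chr7:18678626-18679041 and at chrX:82012706-82013050, where JUNB was 4.68 in EtOH and 1.33 in TAM. At chr2:125080888-125081098 it was 4.47 and 1.33. FOS was also lower in TAM at all 3, with 3.49 and 1.63, 4.19 and 1.72, and 3.60 and 2.04. JUN was not lower in TAM at any of them. It was 0.694 and 1.25 at the chr7 site and 1.26 and 1.30 at the chrX site. At the chr2 site JUN was listed only in TAM, at 1.52. STAT3 did not separate these from the highest ratios in one way. It was 4.57 and 4.24 at the chr7 site, 2.93 and 3.79 at the chrX site, and not listed at the chr2 site.

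**Figure D5:**
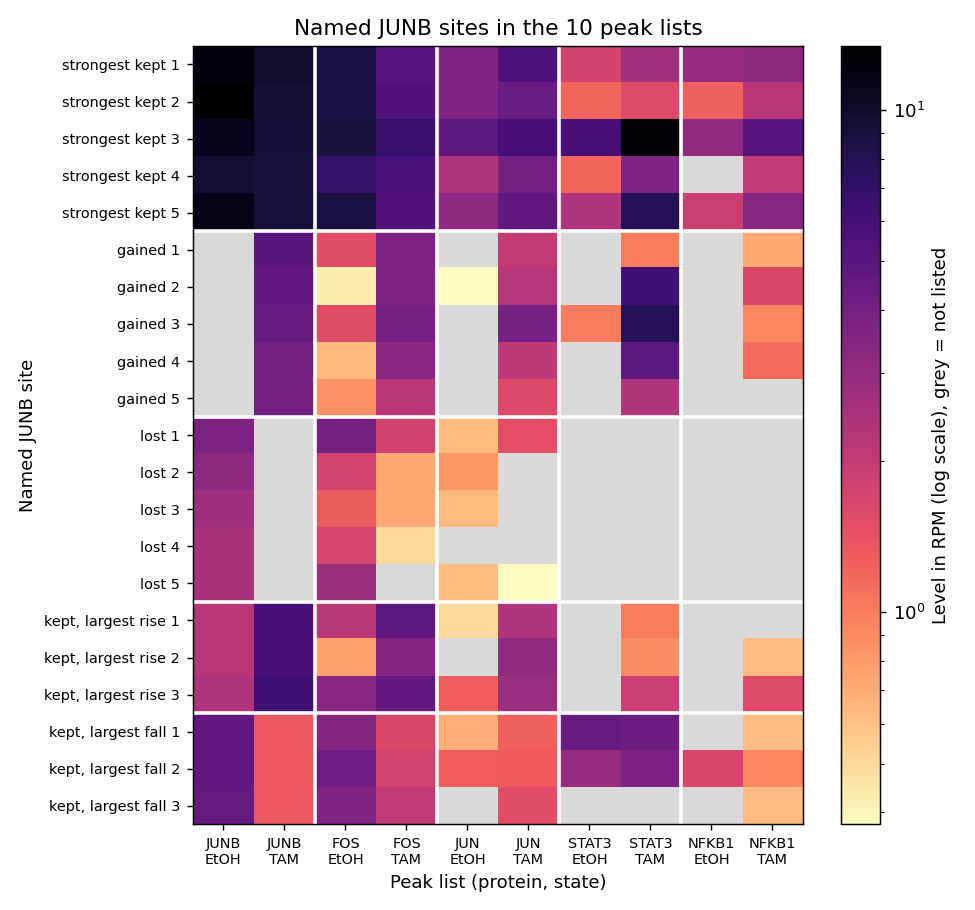
Level in RPM (colour, log scale) at the named JUNB sites (rows) in the 10 peak lists (columns, protein and state). Grey marks a list with no summit within 300 bp. STAT3 and NFKB1 are grey at all 5 lost sites in both states, and FOS in EtOH is coloured at all 5 gained sites.

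The classes were spread over all 23 chromosomes. The kept share of the EtOH sites ranged from 69.5% on chromosome X to 82.9% on chromosome 22. The gained share of the TAM sites ranged from 40.3% on chromosome 19 to 49.3% on chromosome X.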

How the data were processed

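ChIP-seq peak lists of FOS, JUN, JUNB, STAT3 and NFKB1 were used, with 1 library per protein and state. The submitters' processing notes name Bowtie, MACS2 and the build hg19. Per the file headers, the authors ran MACS 2.0.10.20131216 on 1 library at a time and without a control library, at a q-value cutoff of 0.05 and with a local background of 1000000 bp. The deposited pileup is a signal, the extended tags over the summit, not scaled by depth. The deposited ratio, a fold enrichment, sets the pileup against the local background, and the deposited significance is −log10 of the p-value and q-value. Pileups were scaled to RPM by the number of filtered tags in the file header. Summits were matched within 300 bp and paired when mutually nearest. Shares have Wilson 95% intervals, medians order-statistic intervals and pair ratios exact counting intervals. Matching was tested on simulated data. Python 3.11.15, numpy 2.4.6, pandas 2.3.3 and scipy 1.17.1 were used.

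The classes, partners and alternatives were chosen with earlier results of these data known. Named sites were the 5 strongest kept pairs by the weaker state, the 5 strongest gained and 5 strongest lost sites without a JUNB summit of the other state within 1000 bp, and the 3 highest and 3 lowest ratios of TAM to EtOH at a pileup of 20 or more in both lists. Peaks outside chromosomes 1 to 22 and X entered only an alternative. No sequence, motif or gene was read, since the reference at hand is GRCh38.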

Additional observations from a re-analysis of the deposited data

Results flagged for a closer look

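Both JUNB lists held peaks on the mitochondrial genome, outside the chromosomes compared. There were 13 in EtOH and 13 in TAM, and 12 of each lay within 300 bp of one of the other state. Their median level was 3.70 RPM in EtOH and 1.65 in TAM, and the highest were 17.8 and 9.78. No control library was at hand to set beside them.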

How the results depend on the processing

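No paired analysis was possible because each protein and state had 1 library, and for the same reason no replicate could be left out. The 7 shares and medians were recomputed under 14 alternatives, which gave 72 values. Of these, 27 stayed inside the 95% interval of the value reported, 42 moved outside it and 3 turned the sign of the median log2 ratio.

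Matching within 150 bp gave 72.3% kept, 46.2% gained, a partner at 82.3% of gained and 42.4% of lost sites. Within 1000 bp these were 77.9%, 39.4%, 85.5% and 45.2%. With overlap of whole peaks, 45.4% were gained, with a partner at 83.4% of gained and 41.1% of lost sites. Stricter JUNB lists changed more. Above the joint median −log10 q-value, 88.6% were kept and 47.8% gained, the median log2 ratio was -0.14, 2.86% of pairs were 2-fold higher and 4.90% lower, and 99.8% of gained and 97.2% of lost sites had a partner. At 2 RPM or more the same values were 71.7%, 37.4%, -0.082, 0.669%, 1.14%, 99.9% and 99.9%. With the 75249 most significant peaks of each state they were 67.8%, 32.9%, 0.0094, 8.57%, 5.07%, 96.9% and 52.9%. Fold enrichment gave a median of 0.34, with 16.9% higher and 1.29% lower, levels per 1000000 tags before duplicate removal 0.41, 20.9% and 1.5%, and scaling to equal medians 0, 8.95% and 5.93%. Taking every kept EtOH site gave 8.30% higher. Partner peaks of 2 RPM or more left a partner at 16.7% of gained and 2.23% of lost sites. Leaving out NFKB1, an alternative chosen after seeing the data, gave 83.4% for gained sites. Cuts on level or significance remove weak sites by construction, so that a strong site can become lost or gained because its counterpart fell under the cut. The causes of the other changes were not tested. The EtOH library held 9178601 filtered tags, and the part of this depth in which weak sites were listed was not tested.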

Other observations

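Some stretches of the genome held many lost or gained JUNB sites. They were chosen after their values were seen, among 1073 windows of 1 Mb (hg19) with at least 30 sites in each state. Over these windows the median lost share was 22.6%, with a 5th to 95th percentile of 10.4% to 38.3%, and the median gained share was 41.5%, with 29.5% to 52.9%. On chromosome 5 from 130 to 131 Mb, 37 of 66 EtOH sites were lost and 19 of 47 TAM sites gained. On chromosome 5 from 162 to 163 Mb, 19 of 32 were lost and 20 of 34 gained. On chromosome 6 from 57 to 58 Mb, 31 of 49 TAM sites were gained and 16 of 34 EtOH sites lost. Among windows with 20 or more kept pairs, the median log2 ratio of JUNB was lowest on chromosome 20 from 9 to 10 Mb, at -0.66 over 25 pairs, and highest on chromosome 15 from 94 to 95 Mb, at 0.46 over 27 pairs.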
